A study of Homo sapiens with 2 samples.

Results

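CDC25 phosphatases and the kinases that oppose or restrain them were examined for IGF2BP3 binding sites. The set held 7 of 20046 protein-coding genes: the phosphatases CDC25A, CDC25B and CDC25C, the CDK-inhibiting kinases WEE1 and PKMYT1, and the checkpoint kinases CHEK1 and CHEK2. They were grouped by their place in this pathway, and the rule that assigned peaks to them used no measured value. A peak was counted for a gene when it shared at least 1 bp with the annotated span of that gene in the hg38 build. By this rule 5 of 21142 peaks of replicate 1 and 4 of 20799 peaks of replicate 2 lay on the 7 genes.

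The peaks came from LACE-seq of IGF2BP3, an RNA-binding protein that reads N6-methyladenosine (m6A), in OE-19 cells with no treatment named in the labels. OE-19 is an established cell line derived from an esophagogastric junction adenocarcinoma. In LACE-seq, RNA is crosslinked to its proteins with UV light, pulled down with an antibody and reverse transcribed, and linear amplification starts from the cDNA ends. The 2 libraries are replicates of a single group of this 1 line, and the labels do not say whether they came from separate cultures. Libraries of input or IgG were not analysed here, RNA levels were not measured in these files, and the line could therefore not be checked against its marker genes.

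CDC25 phosphatases remove the inhibitory phosphates from cyclin-dependent kinases and so push cells from G1 into S phase and from G2 into mitosis. WEE1 and PKMYT1 put those phosphates on. After DNA damage or stalled replication CHEK1 and CHEK2 phosphorylate the CDC25 proteins, which are then degraded or held by 14-3-3 proteins, and the cycle stops.

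Of the 7 genes, 5 had a peak in replicate 1 (CDC25A, CDC25B, WEE1, PKMYT1 and CHEK2), beside 41% of all protein-coding genes. In replicate 2, 3 had one (CDC25A, CDC25B and PKMYT1), beside 42.2%. A peak in either replicate was found for 5 genes, beside 48.5%, and a peak in both for 3 genes, beside 34.7%. CDC25C and CHEK1 had no peak in either list. Peaks of the 2 lists overlapped by at least 1 bp at only 1 of the 7 genes, PKMYT1, whereas 30.5% of all protein-coding genes and 63% of those with a peak in either list had such a pair. These counts are descriptions of 7 genes, and no test was made on them. Without RNA levels, a gene with no peak and a gene with little RNA cannot be told apart.

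**Figure D1:**
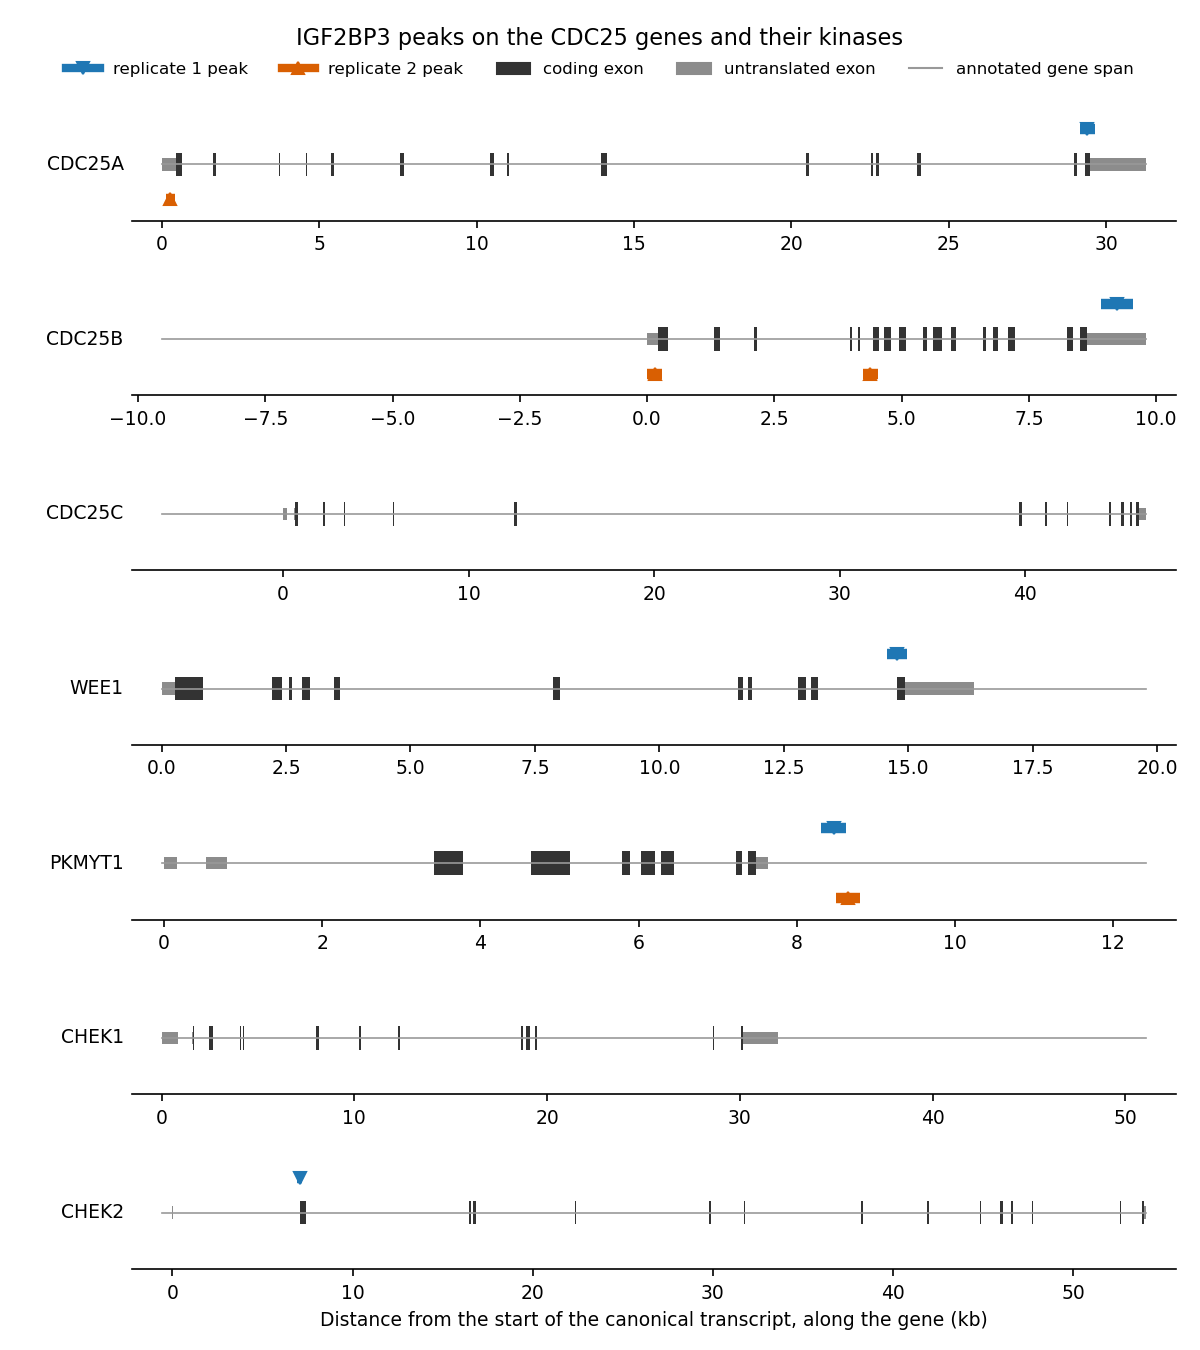
Position of each peak on the 7 genes. The x axis of each row is the distance from the start of the canonical transcript along the gene in kb, black boxes are coding exons, grey boxes are untranslated exons and the line is the annotated span. Bars to scale mark the peaks of replicate 1 (above, downward triangle) and replicate 2 (below, upward triangle), and the triangles only help to find short bars. The peaks of both replicates share bases on PKMYT1 alone.

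The sequences that matter most for CDC25A were the matches to the m6A consensus under its replicate 1 peak, because the study followed m6A in this mRNA. The consensus, DRACH, is an A followed by C, with a purine before the A, any base but C before that purine, and any base but G after the C. The peak held 9 matches in the canonical mRNA, 3 in the coding sequence (CDS) and 6 in the 3′ UTR, of which 5 contained the core GGAC. The 5 GGAC matches and the further match closest to the moved summit described below are shown 5′ to 3′ on the minus strand of chromosome 3 (hg38), with the motif in capitals and named by the position of the first motif base in the mRNA.
CDC25A 1946, CDS, motif at chr3:48159041-48159044: atgcaccacgaGGACtttaaagaaga
CDC25A 1987, CDS, motif at chr3:48159000-48159003: caccaagagccGGACctgggcagggg
CDC25A 2054, 3′ UTR, motif at chr3:48158933-48158936: tgagggcggcaGGACcagccagcagc
CDC25A 2129, 3′ UTR, motif at chr3:48158858-48158861: ttaagcaaaggGGACagctgtgtgac
CDC25A 2140, 3′ UTR, motif at chr3:48158846-48158850: gacagctgtgTGACAtttggagagg
CDC25A 2162, 3′ UTR, motif at chr3:48158825-48158828: gagggggcctgGGACttccatgcctt
The adenosines of the matches at 2129, 2140 and 2162 have the mRNA positions of those whose methylation was assayed elsewhere in the study. The study also reports IGF2BP3 binding to the CDC25A 3′ UTR, from pulldown of IGF2BP3 with qPCR and from pulldown with methylated RNA probes. Those assays were not analysed here, and a match to a motif is no measure of methylation or of binding.

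CDC25A (ENSG00000164045.12), the phosphatase that acts on CDK2 at the entry into S phase, lies on the minus strand of chromosome 3 from 48157146 to 48188417. Its canonical mRNA of 3844 nt has a 5′ UTR of 470 nt, a CDS of 1575 nt and a 3′ UTR of 1799 nt in 15 exons. The replicate 1 peak, chr3:48158793-48159264, covered the stop codon, with 141 bases of CDS, 152 bases of 3′ UTR and 179 bases of the last intron. Its summit, the base of highest read coverage, lay in the CDS of exon 15 at 48158991, 44 nt before the stop codon. The replicate 2 peak, chr3:48187988-48188282, lay at the other end of the gene, with all 295 bases in the 5′ UTR of exon 1 and the summit 267 nt from the transcript start.

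Both CDC25A peaks were called on few reads. The fold enrichment, which the authors' peak caller gave as the read pileup plus 1 over the local background plus 1, was 5.89 in replicate 1 and 5.33 in replicate 2. The added 1 lowers the fold most where reads are few. These folds stood at percentiles 28.9 and 17.0 of their lists. The recovered pileup at the summit was 13 reads in replicate 1 (exact Poisson 95% interval 6.92 to 22.2) over a background of 1.38 reads. In replicate 2 it was 7 reads (2.81 to 14.4) over a background of 0.50. The −log10 q values of 6.80 and 4.63 stood at percentiles 12.2 and 1.27, so the 5′ UTR peak had one of the lowest values of its list. Intervals of this kind cover counting error only. PCR copies are not independent molecules, and whether the pileups hold such copies is not known here.

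The CDC25A peaks of the replicates lay 28724 bp apart, and neither list had a call at the site of the other. How often peaks of such depth recur was read from the whole lists, matched on pileup alone whatever the background or fold. Of the 759 replicate 1 peaks with a pileup of 13 reads, 362 overlapped a replicate 2 peak (47.7%, Wilson 95% interval 44.2 to 51.3). The 663 replicate 2 peaks with 7 reads did so in 206 cases (31.1%, 27.7 to 34.7). Over all depths, 60.1% and 61.2% of the peaks of the lists overlapped. The replicate 1 peak at the stop codon had 13 reads. Replicate 2 peaks with a background within 10% of that of this replicate 1 peak had a smallest pileup of 9 reads and a median of 19. The pileup and background of replicate 2 at this site are not known, and whether the limit of the caller explains the missing call was not tested. Whether IGF2BP3 binding at either CDC25A site differed between the replicates cannot be read from these lists.

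**Figure D2:**
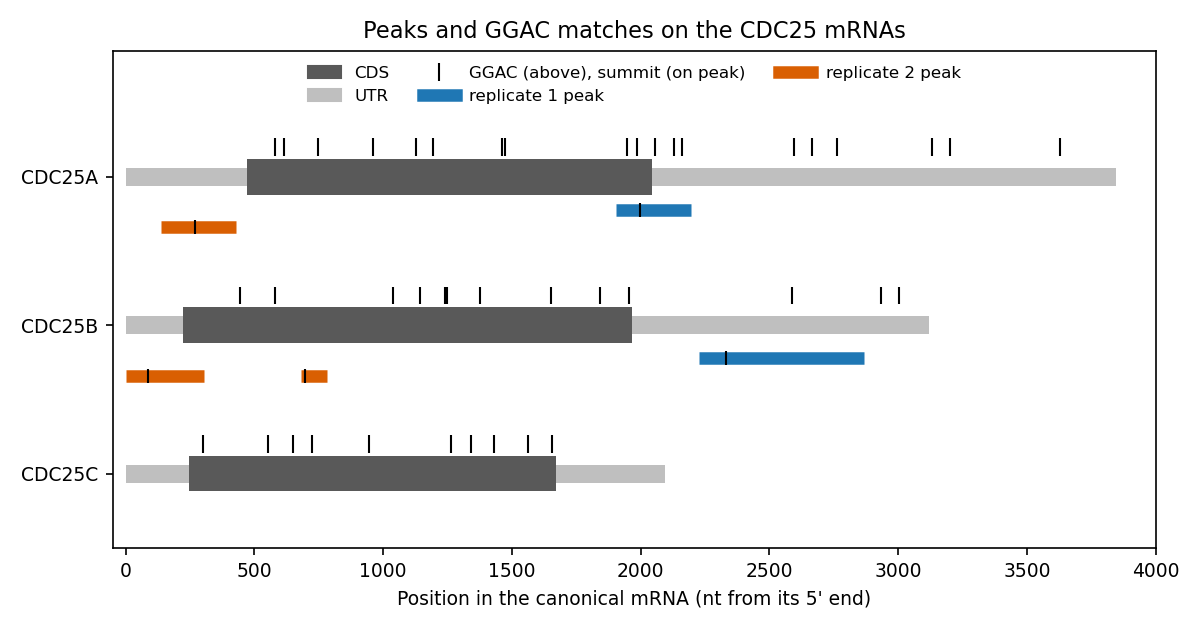
Peaks on the 3 CDC25 mRNAs. The x axis is the position in the canonical mRNA in nt from its 5′ end, dark boxes are CDS, light boxes are UTRs, ticks above each mRNA are GGAC matches, and coloured bars are the exonic parts of the peaks of replicate 1 and replicate 2 with a tick at the summit. The CDC25A peak of replicate 1 spans the stop codon and 5 GGAC matches, those of replicate 2 cover none, and CDC25C has no peak.

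The stop codon region of CDC25A was rich in GGAC. The mRNA held 19 matches, 10 in the CDS and 9 in the 3′ UTR, or 4.94 per kb. The replicate 1 peak covered 7.62% of the mRNA and 5 of these 19 matches, whereas the replicate 2 peak covered 7.67% of it and 0 matches. Over its whole width, intron included, the replicate 1 peak had 6 matches, or 12.7 per kb. Among the 3291 replicate 1 peaks that cover a stop codon the median was 2 matches and 3.40 per kb. As many matches were found in 9.57% of them and as high a density in 1.88%. This comparison was chosen after the values were seen. The study reports UGGAC, written TGGAC here, as the preferred consensus of its LACE-seq targets. This longer motif had 9 matches in the CDC25A mRNA, of which 0 lay under the peak of either replicate. Over its whole width, the replicate 1 peak also held 0 TGGAC. The richness at the stop codon thus held for GGAC and not for TGGAC.

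Where the summit is taken decides which of the matches stands closest. The deposited summit, in the CDS, lay 9 nt from the GGAC at 1987, and its surroundings on the minus strand are shown with the summit base in capitals.
CDC25A replicate 1 summit, chr3:48158977-48159005: ccggacctgggcagGggagaagagcaaga
A position moved downstream by 146 nt, the midpoint of the narrowest peak width of that list, lay at 48158845 in the 3′ UTR, 1 nt from the match at 2140, 12 nt from that at 2129 and 17 nt from that at 2162. Only a downstream move was made, and the files give no reason to prefer that direction. The upstream edge of exon 15 lay 94 nt from the deposited summit, so a like move upstream would end in the last intron. The files do not settle which of these positions is nearer to the crosslinked base. The replicate 2 summit stayed in the 5′ UTR under the corresponding downstream move of 147 nt.
CDC25A replicate 2 summit, chr3:48188136-48188164: cgtgcctgtggctgGtggctggcgcctgg
The window reaching 50 nt to each side of this summit had a GC content of 78.2%. All genic windows of replicate 2 had a median of 56.4% and a 95th percentile of 77.2%. The CDC25B window of replicate 2 at the start codon had 78.2% too. In replicate 1 the CDC25A window had 54.5%, beside a median of 49.5% and a 95th percentile of 71.3% in its list. The replicate 2 list thus had the higher median GC content as a whole.

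CDC25B (ENSG00000101224.18), the phosphatase that starts the activation of CDK1 before mitosis, lies on the plus strand of chromosome 20 from 3786772 to 3806121. It had 3 peaks, the most of the 7 genes, and again no site was called in both replicates. The replicate 1 peak, chr20:3805221-3805862, lay in the 3′ UTR over its whole width of 642 bp, with the summit 368 nt past the stop codon. Replicate 2 had a peak over the start codon, chr20:3796308-3796613, with 224 bases of 5′ UTR and 82 bases of CDS. Its other peak, chr20:3800548-3800844, had 102 bases of CDS of exon 6 and 195 bases of the intron before it. The surroundings of the 3′ UTR and exon 6 summits are shown on the plus strand with the summit base in capitals.
CDC25B replicate 1, 3′ UTR summit, chr20:3805313-3805341: tgaggctgggggagAgccgtggtccctga
CDC25B replicate 2, exon 6 summit, chr20:3800745-3800773: gaggctgctgggccAcagccccgtgcttc

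CDC25B peaks had more reads than those of CDC25A, over a higher background. The 3′ UTR peak had a pileup of 40 reads (28.6 to 54.5) over 7.56, a fold of 4.79 and a −log10 q of 13.5. At the start codon the pileup was 21 reads (13.0 to 32.1) over 3.50, with a fold of 4.89 and a −log10 q of 7.72. At exon 6 it was 32 reads (21.9 to 45.2) over 6.29, with a fold of 4.53 and a −log10 q of 10.3. The pileups stood at percentiles 78.3, 48.0 and 68.8 of their lists, but the folds only at 13.3, 11.9 and 8.60. Thus the CDC25B peaks were deeper than those of CDC25A and lower in fold, in both replicates. The intervals of the pileups did not overlap in replicate 1, nor for the exon 6 peak in replicate 2, whereas that of the start codon peak overlapped the interval at CDC25A. As above, these intervals cover counting error only, and the difference between the genes was not tested.

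Among peaks matched on pileup alone, absence of a shared site was less usual at the depth of the CDC25B peaks. Folds were not matched, and those of CDC25B stood at percentiles 13.3, 11.9 and 8.60. The shares below need not hold for peaks of such low fold. Among replicate 1 peaks of 40 reads, 73.4% (141 of 192, interval 66.8 to 79.2) overlapped the other list. For replicate 2 the shares were 59.0% (317 of 537) at 21 reads and 70.1% (209 of 298) at 32 reads. The nearest call of the other list was 4377 bp from the 3′ UTR and exon 6 peaks and 8608 bp from the start codon peak. For comparison, 71.8% of the 1566 genes with exactly 1 peak in each list and 88% of the genes with a peak in both lists had an overlapping pair. CDC25A and CDC25B were thus both among the smaller share of genes that had calls in both lists without a shared site.

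**Figure D3:**
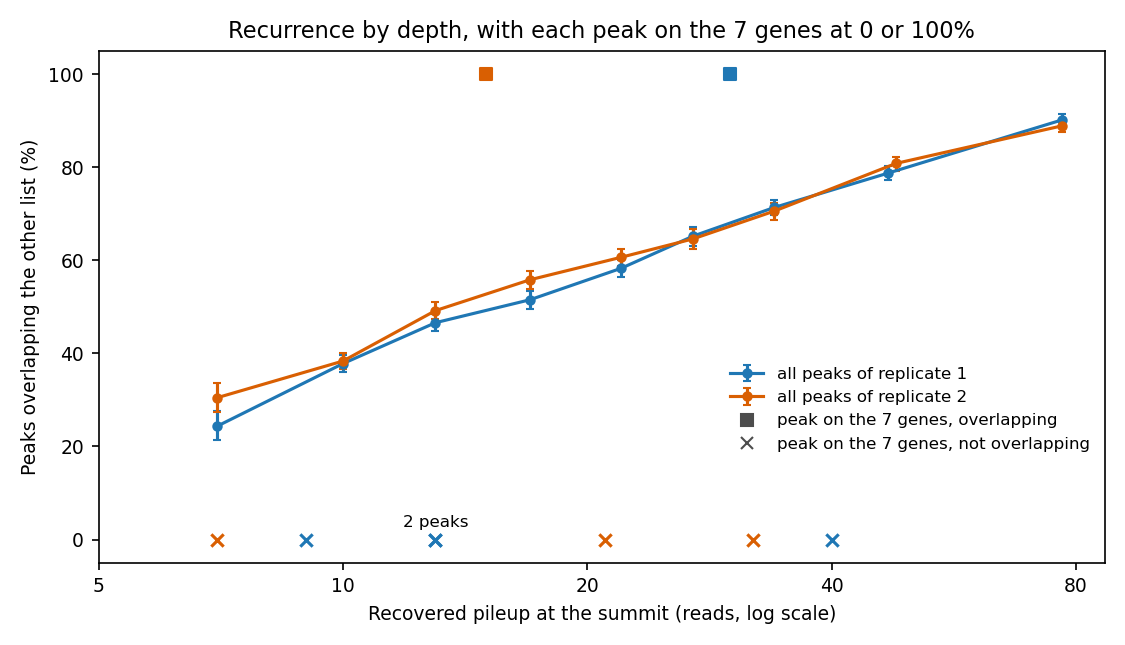
Share of peaks that overlap the other list by depth. The x axis is the recovered pileup at the summit in reads on a log scale and the y axis is the share of peaks in %, lines with points are all peaks of each replicate in bins of pileup with Wilson 95% intervals, squares at 100% are the PKMYT1 peaks and crosses at 0% are the other 7 peaks on the 7 genes. Blue is replicate 1 and orange is replicate 2, and the share rises with depth in both lists.

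The CDC25B mRNA held 13 GGAC matches in 3119 nt (4.17 per kb), close to the density in CDC25A and in CDC25C (10 matches, 4.78 per kb). Its peaks covered 20.6% of the mRNA in replicate 1 and 13.0% in replicate 2, but only 1 GGAC match in replicate 1 and 0 in replicate 2. The covered match lay in the 3′ UTR, 256 nt from the summit.
CDC25B 2587, 3′ UTR, motif at chr20:3805583-3805586: cgcccatctcaGGACacttccgtaga
The CDC25 mRNAs were thus alike in GGAC density over their whole length and differed in the matches under peaks, with 5 in CDC25A, 1 in CDC25B and none in CDC25C, which has no peak.

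CDC25C (ENSG00000158402.21), the phosphatase that activates CDK1 at the onset of mitosis, lies on the minus strand of chromosome 5 from 138285269 to 138338355. No peak touched its span of 53.087 kb or its mRNA of 2093 nt. The nearest peaks lay 47612 bp upstream on KDM3B in replicate 1 and 6807 bp upstream on FAM53C in replicate 2. The closest calls that the span rule left out were beside CDC25B, where peaks on CENPB, a gene of the opposite strand, ended 140 bp (replicate 1, fold 4.18, 57 reads) and 130 bp (replicate 2, fold 6.77, 88 reads) before the CDC25B span. The 2 CENPB peaks overlapped each other.

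WEE1 (ENSG00000166483.12), the nuclear kinase that inhibits CDK1 and CDK2, lies on the plus strand of chromosome 11 from 9573670 to 9593457 and had a peak in replicate 1 only, chr11:9588238-9588639. It covered the stop codon, with 154 bases of CDS, 37 bases of 3′ UTR and 211 bases of the last intron. The summit was intronic, 23 nt before exon 11 and 174 nt before the stop codon, and moved into the CDS with the downstream shift.
WEE1 replicate 1 summit, chr11:9588412-9588440: cctaggaataatacCttgttttctatttt
The pileup was 13 reads (6.92 to 22.2), the same as at CDC25A, but over a background of 0.850. The fold was therefore higher, 7.57, at percentile 62.5, and this was the only one of the 9 peaks above the median of its list. The −log10 q was 9.34. No replicate 2 peak lay within 75323 bp. The peak resembled that of CDC25A in position, across the last 3′ splice site and the stop codon, but held 0 GGAC in its 402 bp, and the GC content within 50 nt of its summit was 31.7%.

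PKMYT1 (ENSG00000127564.17), the membrane-bound kinase that inhibits CDK1, lies on the minus strand of chromosome 16 from 2968024 to 2980479. It had the only overlapping pair. The peaks chr16:2971822-2972135 of replicate 1 and chr16:2971650-2971954 of replicate 2 shared 133 bp, and their summits were 15 bp apart, as the windows on the minus strand show.
PKMYT1 replicate 1 summit, chr16:2971857-2971885: ctgcaggatggagcCcacgctcagcaggt
PKMYT1 replicate 2 summit, chr16:2971872-2971900: gacgccggcgtgcaGctgcaggatggagc
The pileups were 30 reads (20.2 to 42.8) over 5.39 in replicate 1 and 15 reads (8.40 to 24.7) over 2.91 in replicate 2. The folds were 4.85 and 4.09, at percentiles 13.9 and 5.46, and the −log10 q values were 10.5 and 4.51.

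The pair was not on the PKMYT1 coding mRNA. Its summits lay 1084 and 1069 nt past the PKMYT1 stop codon, and 0 bases of the canonical mRNA were under either peak. Only 1 of the 20 annotated PKMYT1 transcripts, a non-coding one, had an exon there. PAQR4, a gene on the opposite strand from 2969270 to 2973484, lay under both peaks. Both summits were in its CDS, and the peaks held 127 bases of PAQR4 CDS and 187 bases of its 3′ UTR in replicate 1 and 299 and 6 bases in replicate 2. The peaks carry no strand, so reads from PKMYT1 and from PAQR4 cannot be told apart. Without peaks that also lie on another gene, 0 of the 7 genes had a shared site.

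CHEK1 and CHEK2, the kinases that transmit the signals of ATR and ATM to the CDC25 proteins, had 1 peak between them. CHEK1 (ENSG00000149554.15), on the plus strand of chromosome 11 from 125625163 to 125676255, had none, and the nearest calls were 4310 bp (replicate 1, 19 reads) and 6731 bp (replicate 2, 14 reads) upstream in introns of STT3A. CHEK2 (ENSG00000183765.24), on the minus strand of chromosome 22 from 28687743 to 28742422, had a replicate 1 peak at chr22:28734604-28734896. It covered the start codon in exon 2, with 118 bases of CDS, 6 bases of 5′ UTR and 169 bases of the intron before it. The summit was intronic, 14 nt before exon 2.
CHEK2 replicate 1 summit, chr22:28734727-28734755: ctttgttgttggacActttctttttgagg
CHEK2 had the lowest pileup of the replicate 1 peaks on the 7 genes, 9 reads (4.12 to 17.1) over 0.615, with a fold of 6.19 at percentile 35.8 and a −log10 q of 6.20. Of replicate 1 peaks with 9 reads, 35.8% (243 of 679) overlapped the other list. The nearest replicate 2 peak was 59837 bp away.

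**Figure D4:**
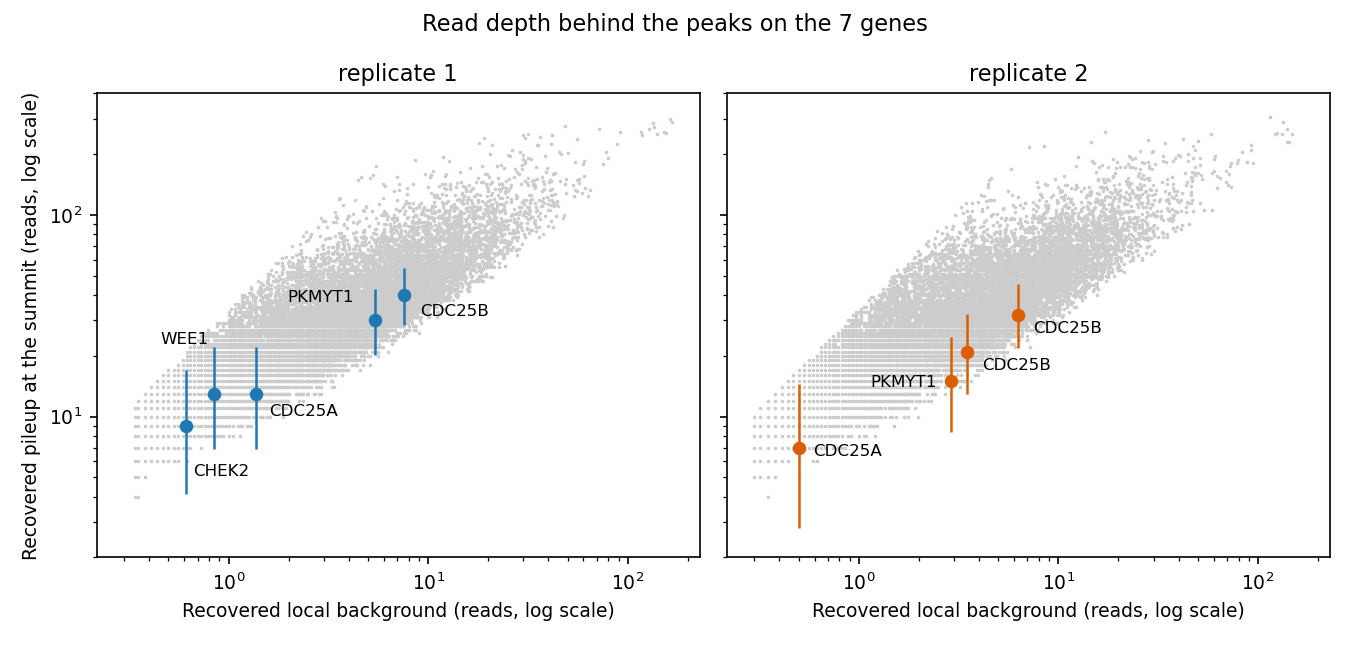
Read depth behind each peak. The x axis is the recovered local background and the y axis the recovered pileup at the summit, both in reads on log scales, for replicate 1 (left) and replicate 2 (right). Grey points are all peaks, and coloured points with exact Poisson 95% intervals of the pileup are the peaks on the 7 genes, of which those of CDC25B and PKMYT1 lie near the lower edge of the cloud.

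As a group, the 9 peaks ranked low in fold. The percentiles ran from 5.46 to 62.5 with 8 of 9 below 50, and the median was 28.9 in replicate 1 and 10.2 in replicate 2 (mean 19.5 ± 13.2, SD, n = 2 replicates), beside 50 for a whole list by definition. Pileups were more spread, with 6 of 9 below the median of their list. All 31-mers of all 9 peaks occurred once in the genome.

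Exons held 7 of the 9 summits, 3 of 5 in replicate 1 and 4 of 4 in replicate 2, beside 71.5% and 73.9% of all peaks on protein-coding genes. The PKMYT1 summits counted only through an exon of 1 non-coding transcript. With canonical transcripts alone, 5 of the 9 summits were exonic. CDS was touched by 3 of 5 and 2 of 4 peaks, beside 70.9% and 72.4%. A 3′ splice site was crossed by 4 peaks, those of CDC25A (replicate 1), CDC25B (exon 6), WEE1 and CHEK2, or 3 of 5 and 1 of 4 beside 56.3% and 53.5%. Stop codons were covered by 2 of the 5 replicate 1 peaks (CDC25A and WEE1) and by 0 of the 4 replicate 2 peaks, beside 18.1% and 16.8%. These counts rest on 5 and 4 peaks and were not tested.

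Motifs were sought within 50 nt of the summits, on the strand of the gene. GGAC was found in 2 of 5 windows in replicate 1 (CDC25A and CHEK2) and 0 of 4 in replicate 2, beside 29.1% and 32% of all genic windows. The CHEK2 match lay in the intron, and 0 GGAC of the CHEK2 mRNA were under its peak. Of the extensions of GGAC, TGGAC was found in the CHEK2 window alone, at this intronic match (10.1% and 10.2% of all windows). GGACT was found in none (8.31% and 9.27%). CACA, of the CA-rich kind known for IGF2BP proteins, was in 1 of 5 and 2 of 4 windows, beside 37.2% and 34.3%. DRACH, which includes GGACT and many GGAC and TGGAC matches, was in 4 of 5 windows of replicate 1 and 1 of 4 of replicate 2, beside 81.2% and 77.1%.

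The CDC25A pattern of a stop codon peak in replicate 1 and a separate 5′ UTR peak in replicate 2 was then sought in other genes. Of the 441 genes with exactly 1 peak in each list and no overlap, 21 (4.76%) had it, CDC25A included, and 4 had the reverse order. The 3 genes closest to CDC25A in the fold percentiles of both replicates were SPTSSB (folds 5.95 and 6.05), ZNF41 (5.14 and 5.56) and GALNT4 (4.87 and 5.51). CDC25A no longer counted among them when −log10 q had to reach 5 or the pileup 10 reads, because its 5′ UTR peak met neither.

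Other genes of the pathway were taken from a list of 36. Of these, 21 had a peak in replicate 1, 20 in replicate 2 and 18 in both, beside 41%, 42.2% and 34.7% of all protein-coding genes. All 18 with peaks in both had an overlapping pair, beside 88% of all such genes. CDC25A and CDC25B, by contrast, had calls in both lists at separate sites, and this difference was not tested. Peak numbers per gene were not matched. CDC25A had 1 peak in each list and CDC25B had 1 and 2, whereas the 18 genes ran from BTRC with 1 and 1 to ARPP19 with 7 and 3. Of all genes with exactly 1 peak in each list, 71.8% had a pair. The genes for 14-3-3 proteins, which bind phosphorylated CDC25, had pairs in 7 of 7 cases, beside 30.5% of all protein-coding genes. Among the genes for the degradation of CDC25A, 4 of 5 did (BTRC, FBXW11, CUL1 and SKP1), and FZR1 had a peak in replicate 1 only. Of the substrate kinases and cyclins, CCNA2 alone of 6 had a peak in either list, beside 48.5% of all protein-coding genes. CDK1, CDK2, CCNB1, CCNB2 and CCNE1 had none. The sensor and mediator genes upstream of CHEK1 and CHEK2 had pairs in 3 of 9 cases (TOPBP1, CLSPN and RAD9A) and the other genes of mitotic entry in 3 of 8 (AURKA, ENSA and ARPP19). The counts of the upstream and mitotic entry groups lay near the 30.5% of all protein-coding genes with a pair. WEE2, the paralog of WEE1, had no peak. Without peaks that also lie on another gene, as at PKMYT1, 14 of the 18 genes still had a pair, and RAD9A, YWHAH, BTRC and SKP1 did not.

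**Figure D5:**
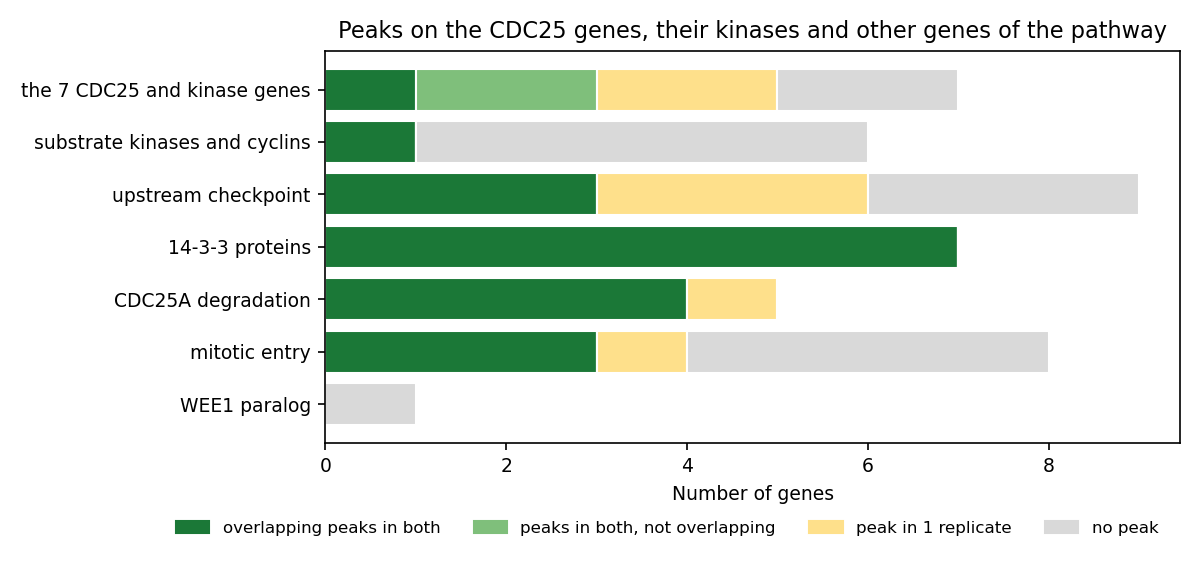
Number of genes by recurrence of their peaks, for the 7 genes and the groups of the pathway list. The x axis is the number of genes, and colours show genes with overlapping peaks in both replicates, with peaks in both that do not overlap, with a peak in 1 replicate and with no peak. All 7 genes for 14-3-3 proteins have overlapping peaks, and peaks in both lists without overlap occur only among the 7 CDC25 and kinase genes, at CDC25A and CDC25B.

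The lower folds of the best pathway pairs, 1 per gene, overlapped the folds of the WEE1 and CHEK2 peaks, which had no pair. They lay above the folds of CDC25A, CDC25B and PKMYT1. Several pathway genes had more than 1 pair, such as RAD9A with 4, and only the best was taken. Their other pairs were not compared, whereas every peak of the 7 genes was. The lower fold of each best pair ran from 5.96 (CUL1) with a median of 8.55. It was below 7.57, the fold of WEE1 and the highest on the 7 genes, in 8 of 18 cases. All folds of CDC25A, CDC25B and PKMYT1 were at most 5.89. The lower fold of the PKMYT1 pair, the like measure, was 4.09. These differences were not tested. The 6 genes with the highest lower fold percentile are named here, so that their high folds follow from the choice. YWHAQ, a gene for a 14-3-3 protein, had folds of 18.7 and 19.9 in the replicates (pileups of 77 and 82 reads). YWHAE had 15.1 and 18.0 in its 5′ UTR, YWHAG 12.9 and 21.1 and YWHAH 11.6 and 12.3, where ENSG00000285404 also lay under the peak. ARPP19, an inhibitor of the phosphatase PP2A in mitosis, had 13.4 and 17.8. BTRC, an F-box protein of the ligase that marks CDC25A for degradation, had 11.9 and 12.6 in an intron, where the gene RNU2-59P also lay under the peak.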

How the data were processed

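IGF2BP3 LACE-seq peak lists of 2 replicates of OE-19 cells were used. The 7 genes and the lists were chosen with earlier results of these data known. Per the study's methods, the authors removed reads on pre-rRNA, aligned the rest to hg38 with Bowtie (at most 2 mismatches) and called peaks with Piranha. The submitters' processing notes instead name fastp, HISAT2 and MACS2, and the deposited files have the layout and Poisson values that MACS writes. Peaks were called per replicate and carry no strand.

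The authors deposited the fold enrichment as a ratio, which the values show to be the pileup plus 1 over the local background plus 1, and p-values and q-values on the −log10 scale. A deposited score column repeats the q-value and was not used. Other deposited columns hold positions in bp. Read totals are unknown. The whole pileup and the background that give both the deposited fold and p-value (within 0.001 on the −log10 scale) were found for all 21142 and 20799 peaks, with a minimum of 4 and a median of 22 reads in both lists, and the recovery was tested on simulated data.

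Peaks were placed on GENCODE 44 genes. Base class was CDS, 3′ UTR, 5′ UTR, non-coding exon or intron, with earlier classes taking precedence where transcripts differed. Sequences and motifs were read from hg38 on the strand of the gene. The sequence at the CDC25B start codon peak is not reported here. Coordinates are 1-based. Genes named beside the 7 were those under the same peaks, the 6 pathway genes with the highest lower fold percentile of an overlapping pair and the 3 nearest by pattern to CDC25A. Other genes were named to complete a small count or a nearest distance, after their values were seen. With 1 group there was no test, and shares are given beside those of all genes or peaks. Alternatives changed the peaks, the overlap, the summit, the transcripts, the motif windows, the ranking measure and the replicates kept. Python 3.11.15, numpy 2.4.6, scipy 1.17.1 and pysam 0.24.0 were used.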

Additional observations from a re-analysis of the deposited data

How the results depend on the processing

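Of 57 values under alternatives to 11 results, 43 stayed within 1.5 times the count or within the replicate SD, but 10 of these could not have moved: the overlap of CDC25A or CDC25B peaks started at 0 and was tried only with stricter rules, and leaving out 1 of 2 replicates keeps the fold percentile within their SD. With only peaks of −log10 q of at least 5, genes with a peak in both replicates fell from 3 to 1 (CDC25B). Genes with an overlapping pair fell from 1 to 0 with that limit, with a reciprocal overlap of at least 50%, and without peaks that also lie on another gene, an alternative chosen after seeing the data that also took pathway genes with peaks in both from 18 to 14. GGAC was found in 2 windows around summits but in 5 whole peaks, 4 windows around midpoints and 4 wider windows of 100 nt to each side. Leaving out a replicate gave 4 to 5 peaks in place of 9, 3 to 4 exonic summits in place of 7, 2 to 3 peaks touching CDS in place of 5, 0 to 2 windows with GGAC in place of 2, and a median fold percentile of 10.2 to 28.9, each a count over 1 list. No paired analysis was possible because the 2 libraries belong to a single group. The CDC25A peak of replicate 2 rested on 7 reads, and library read totals are unknown. Whether depth limited the calls was not tested.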
